A study of Mus musculus with 20 samples.

Results

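The genes described here drive DNA replication and mitosis, and they were read in eosinophils sorted by flow cytometry from mouse lung. They are 38 named mouse genes, 18 that act in S phase (the replicative helicase, its loaders, polymerases, clamp and nucleotide supply) and 20 that act in mitosis (cyclins, kinases, spindle and kinetochore proteins). Each was matched by symbol to 1 of the 49315 gene identifiers in the deposited counts, and all 38 passed the filter on low counts that left 16500 genes for testing. The resting group was 5 libraries from lungs of untreated C57BL/6 mice. The second group was 5 libraries from Balb/c lungs 7 days after transplantation into C57BL/6 recipients without costimulatory blockade (treatment that withholds accessory signals from T cells). The shared protocol text speaks of blockade for all transplants, whereas the titles of these 5 samples say that none was given. Every library pooled the lungs of 3 to 5 mice, and the labels describe the infiltrating eosinophils as cells of the recipient. The sources used here do not give the ages of the mice. Nothing says that the pools were independent, and the p-values cover only the spread among these libraries, which may be technical. The samples with blockade, at days 7 and 30, were not analysed here.

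Before a cell divides, origin recognition proteins with Cdc6 and Cdt1 load the ring of Mcm proteins onto DNA. Cdc45 and the GINS complex then turn the ring into an active helicase, and polymerases copy the strands behind it. Cyclin-dependent kinase 1 with cyclins A and B starts mitosis, in which Aurora and Polo kinases build the spindle and the anaphase-promoting complex ends it by destroying the cyclins. S phase genes are known targets of E2F factors, and mitotic genes of the DREAM and MuvB complexes, Foxm1 and B-Myb. Mature eosinophils are end-stage granulocytes that are made in the bone marrow and are not known for dividing in tissue, so messenger RNAs of these genes are usually low in them.

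The promoters are shown first. The S phase and the mitotic members were both higher in the graft libraries, and they differed in how often some sequence elements stood in their promoters. RefSeq windows (GRCm38.p6, 250 bases before to 50 after an annotated start) were at hand for 32 members, 16 of each kind, and not for Mcm4, Gins2, Ccna2, Aurkb, Tpx2 and Foxm1. The motifs searched on both strands were TTTCCCGC, TTTCGCGC, TTTGCCGC and TTTGGCGC (the E2F element), TTTGAA and TTCGAA (the cell cycle genes homology region, CHR, bound by DREAM and MuvB) and CCAAT (the box bound by NF-Y). The 3 S phase and 3 mitotic members below had the largest fold changes among those that held, in the 200 bases before the start, an E2F match or both a CHR and a CCAAT match, with a RefSeq start within 100 bases of the GENCODE start. Capitals mark every match of the 3 motif kinds, and each sequence reads towards its gene and ends at the base before the start.
Mcm5, helicase subunit, chr8:75109309-75109508, plus strand: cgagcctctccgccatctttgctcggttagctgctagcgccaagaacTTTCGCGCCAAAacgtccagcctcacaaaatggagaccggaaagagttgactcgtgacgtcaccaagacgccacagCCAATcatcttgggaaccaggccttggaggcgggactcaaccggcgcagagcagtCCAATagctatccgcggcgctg
Mcm6, helicase subunit, chr1:128359706-128359905, minus strand: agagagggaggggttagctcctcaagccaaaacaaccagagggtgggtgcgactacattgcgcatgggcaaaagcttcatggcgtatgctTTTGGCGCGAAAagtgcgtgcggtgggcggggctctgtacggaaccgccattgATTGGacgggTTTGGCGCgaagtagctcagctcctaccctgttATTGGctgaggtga
Pola1, catalytic subunit of DNA polymerase alpha, chrX:93632156-93632355, minus strand: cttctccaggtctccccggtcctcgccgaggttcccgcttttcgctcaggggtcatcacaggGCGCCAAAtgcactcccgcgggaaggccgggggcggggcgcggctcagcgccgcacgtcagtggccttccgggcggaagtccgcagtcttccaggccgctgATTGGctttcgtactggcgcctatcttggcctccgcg
Top2a, topoisomerase II alpha, chr11:99024190-99024389, minus strand: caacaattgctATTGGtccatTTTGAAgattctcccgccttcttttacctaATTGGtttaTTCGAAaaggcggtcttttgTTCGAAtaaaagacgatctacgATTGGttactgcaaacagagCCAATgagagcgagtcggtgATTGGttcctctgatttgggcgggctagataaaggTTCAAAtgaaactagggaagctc
Kif11, spindle motor, chr19:37376182-37376381, plus strand: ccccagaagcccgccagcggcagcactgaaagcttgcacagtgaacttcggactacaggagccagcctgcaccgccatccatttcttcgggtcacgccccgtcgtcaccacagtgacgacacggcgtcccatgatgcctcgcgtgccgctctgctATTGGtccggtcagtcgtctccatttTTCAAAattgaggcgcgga
Cdk1, kinase of mitotic entry, chr10:69352913-69353112, minus strand: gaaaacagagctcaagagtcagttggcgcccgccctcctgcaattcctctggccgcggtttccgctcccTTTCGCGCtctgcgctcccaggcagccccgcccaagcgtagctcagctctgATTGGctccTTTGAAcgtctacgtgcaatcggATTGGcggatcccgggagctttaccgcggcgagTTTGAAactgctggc

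An E2F match stood in the windows of 8 of 16 S phase members (Cdc6, Cdt1, Mcm3, Mcm5, Mcm6, Mcm7, Pola1 and Uhrf1) and of 1 of 16 mitotic members (Cdk1), against 2.26% of all 32851 promoter windows. A CHR match stood in the windows of 12 of 16 mitotic members and of 3 of 16 S phase members (Cdc45, Mcm2 and Mcm7), against 19.2% of all windows. The CCAAT box was frequent in both kinds, in 12 of 16 S phase and 14 of 16 mitotic members, against 37.4% of all windows. All 12 mitotic members with a CHR match also held a CCAAT box, a pairing found in 7.52% of all windows. In Mcm5 and in Mcm6 a pair of E2F matches overlapped, starting 153 and 149 bases and 110 and 106 bases before the start. The CHR matches nearest the start began 23, 19 and 15 bases before it in Top2a, Kif11 and Cdk1. Across all members' windows 1 pair of matches of different kinds overlapped. A member was counted if any of its windows matched, whereas the shares of all windows count single windows. Uhrf1 and Mcm7, for example, had more than 1 window, so these counts and shares differ in unit. These matches describe letters in a window and say nothing about binding in these cells.

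The comparison asks whether replication and division genes were expressed at another level in eosinophils from the graft without blockade than in those of undisturbed lung. S phase members were higher in the graft in 17 of 18 cases and mitotic members in 18 of 20, and none was lower, by edgeR's quasi-likelihood test at an adjusted p below 0.05. The background was high: 23.3% of all tested genes were higher and 23.4% lower, or 46.7% in either direction. The median log2 fold change was 0.91 for S phase members (1.88-fold), 1.15 for mitotic members (2.22-fold) and 0.05 for all genes tested. At least 2-fold rises passed in 8 S phase and 12 mitotic members, against 9.08% of all genes. Every day 7 library lay above every resting library in 10 S phase and 12 mitotic members, against 16.4% of all genes. Scaling to library totals alone moved the median of all genes to -0.14 and those of the S phase and mitotic members to 0.72 and 0.96, with 14 and 16 members higher and none lower, against 15.1% of all genes higher and 29.6% lower. The share of higher genes among all those called fell with it, from 49.9% to 33.8%. The members were chosen with earlier results of these data known, so these counts are descriptions of the list.

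**Figure D1:**
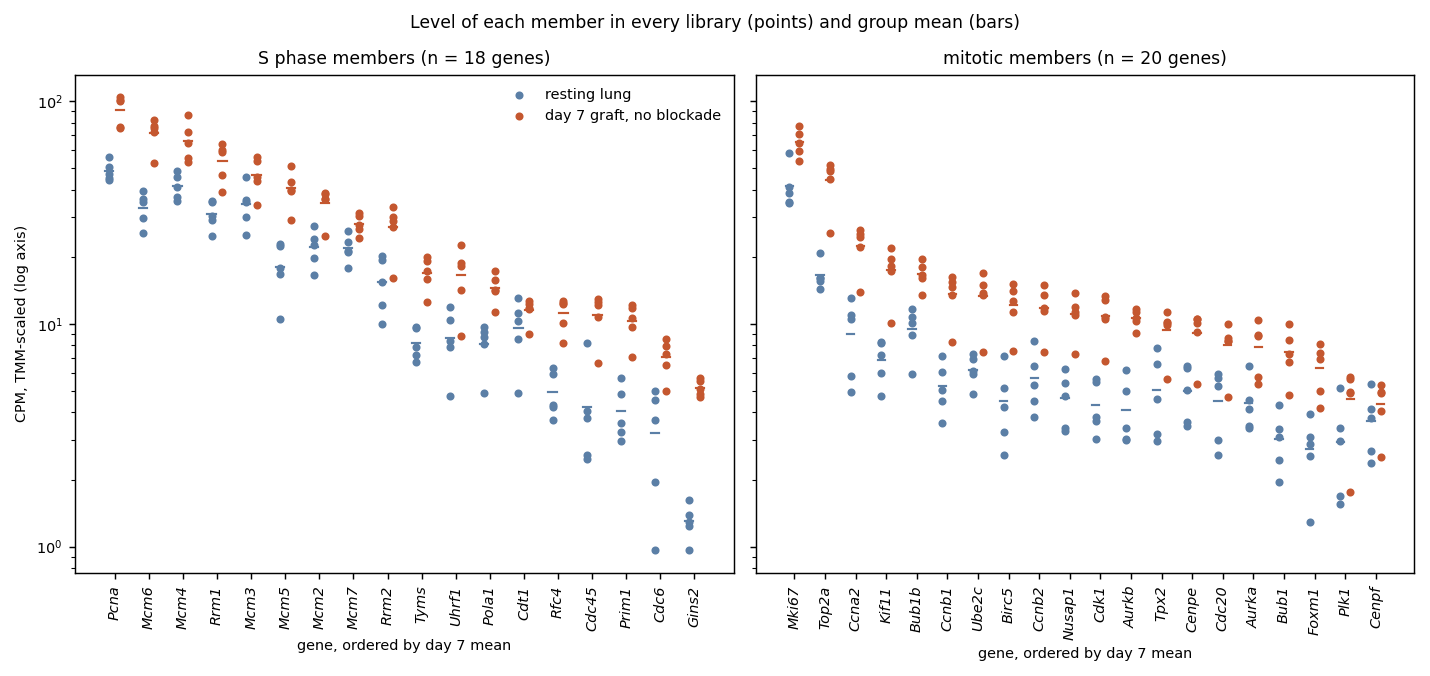
Level of each member in CPM (counts scaled to a common library total after TMM normalization, log axis) in the 5 resting and the 5 day 7 libraries, with group means as bars. Pcna and Mki67 had the highest day 7 means of their kinds, 91.4 and 65.3 CPM, and in 22 of 38 members the points of the groups did not overlap.

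Total counts were 6666577 to 12883144 per resting library and 15695074 to 26683784 per day 7 library, and the groups came from separate deposited tables, so a batch cannot be told apart from the transplant. The lowest count of any member in any library was 12, above the floor of 3 counts used for counting error. Eosinophil markers were detected in every library (14 of 14, 2 higher and 6 lower), and their summed level was 2340 to 4010 CPM at rest and 1750 to 4030 CPM in the graft. The lower markers were Prg2, Prg3, Epx, Ear1, Ear2 and Ear6, with log2 fold changes of -3.75 to -1.79. The higher markers were Siglecf and Il1rl1 (0.59 and 1.23). Markers of other cells moved in the same libraries: all 14 T cell markers and 12 of 14 monocyte and macrophage markers were higher, and all 10 endothelial and 8 of 9 epithelial markers were lower. Of all genes tested 23.3% were higher and 23.4% lower. In pooled sorted cells, fewer cells of a type and less RNA per cell cannot be told apart. The sources used here do not say whether counting used strand, and 8 members share exonic bases with a gene on the opposite strand that also had counts, so their values are uncertain to that extent.

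The minichromosome maintenance genes Mcm2 to Mcm7 encode the subunits of the ring-shaped helicase. Mcm5 (chromosome 8, 75109569 to 75128439, mm10) had 22.3, 17.8, 16.8, 22.7 and 10.5 CPM in resting replicates 1 to 5 and 51, 29.3, 39.6, 43.4 and 40 CPM in day 7 replicates 1 to 5. The groups did not overlap, and the log2 fold change was 1.18 ± 0.20 (SE, edgeR adjusted p = 0.0003). Mcm6 (chromosome 1, 128331590 to 128359664) had 39.4, 25.5, 36.2, 35.3 and 29.8 CPM in the resting libraries and 76.9, 52.6, 82, 72.3 and 75.9 CPM in the graft libraries. For both genes day 7 replicate 2 was the lowest of its group and still lay above all resting libraries. Mcm6 rose by 1.12 ± 0.15 on the log2 scale (edgeR adjusted p = 3.22e-05). The other 4 subunits changed less: Mcm4 by 0.68, Mcm2 by 0.67, Mcm3 by 0.45 and Mcm7 by 0.36 on the log2 scale. Mcm3 and Mcm7 had adjusted p-values of 0.0459 and 0.032 and group ranges that overlapped. Their calls were not stable. That of Mcm3 ended when resting library 1, 2, 3 or 5, or graft library 1, 3 or 4, was left out (edgeR adjusted p between 0.0563 and 0.118), and that of Mcm7 when resting library 2, 3 or 5, or graft library 1 or 3, was left out (between 0.0575 and 0.0785). Both also ended with DESeq2 size factors (adjusted p = 0.0706 and 0.0539) and with library totals alone (0.297 and 0.36), and that of Mcm3 with thinned counts (0.0934) and with DESeq2 (0.0624). Of Mcm7's exonic bases 7.25% lie in exons of Ap4m1 and 1.45% in those of Cops6, on the opposite strand. The subunits of 1 ring thus differed in their fold changes, from 1.29-fold in Mcm7 to 2.27-fold in Mcm5, a spread that was not tested.

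Cdc6 and Cdt1 place the Mcm ring on DNA in G1. Cdt1 (chromosome 8, 122568015 to 122573554) was the S phase member that did not pass, with 11.2, 4.87, 10.3, 13.1 and 8.52 CPM in resting replicates 1 to 5 and 12.7, 11.8, 11.7, 12.3 and 9 CPM in day 7 replicates 1 to 5. Its groups overlapped nearly throughout, and the log2 difference was 0.26 ± 0.22 (edgeR adjusted p = 0.359). Cdc6 passed with 3.24 ± 1.73 CPM at rest and 7.07 ± 1.38 CPM in the graft (SD, n = 5 each; edgeR adjusted p = 0.0165). That call ended when all libraries were thinned to the smallest total (adjusted p = 0.062). Cdc45 and Gins2 belong to the helicase that moves with the fork. Gins2 (chromosome 8, 120578633 to 120589304) had 1.38, 1.29, 1.24, 1.62 and 0.963 CPM in the resting libraries and 5.55, 5.11, 5.69, 4.68 and 4.85 CPM in the graft libraries. Within each group these values were close together, and the log2 fold change of 2.01 ± 0.22 was the largest among the 38 members (4.02-fold, edgeR adjusted p = 5.05e-06). However, 67.3% of its exonic bases are shared with Gse1 on the opposite strand, a gene whose log2 fold change was -0.67. Cdc45 rose by 1.39 ± 0.31 on the log2 scale, with resting replicate 1 (8.16 CPM) above day 7 replicate 2 (6.7 CPM).

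Polymerase alpha and primase start each new strand. Prim1, the catalytic primase subunit (chromosome 10, 128015168 to 128030037), had 5.72, 3.58, 4.86, 2.98 and 3.26 CPM in resting replicates 1 to 5 and 9.69, 7.09, 10.6, 11.8 and 12.2 CPM in day 7 replicates 1 to 5. The groups were separate, and Prim1 rose by 1.33 ± 0.22 on the log2 scale (edgeR adjusted p = 0.000268). Pola1 (chromosome X, 93304767 to 93632155) had 9.64, 8.75, 9.2, 4.87 and 8.08 CPM and 14.1, 11.3, 17.2, 14.2 and 15.8 CPM in the same order. Resting replicate 4 was the lowest library, and no resting library reached a graft library. Pcna, the sliding clamp that holds polymerases on DNA (chromosome 2, 132249162 to 132253314), had 56.3, 47.2, 44.9, 44.2 and 50.3 CPM in the resting libraries and 99.5, 104, 101, 76.6 and 75.8 CPM in the graft. It was the S phase member with the highest level in CPM and per exonic length (20.2 and 38.1 CPM per kilobase), and the one in which day 7 replicate 2 was the highest of its group. Pcna rose by 0.91 ± 0.12 on the log2 scale (edgeR adjusted p = 4.08e-05). Its annotated processed copies Pcna-ps1 and Pcna-ps2 had at most 6 and 57 counts in any library, so few reads were counted there. Rfc4, a subunit of the clamp loader (chromosome 16, 23113943 to 23127737), had 4.24, 5.97, 3.72, 6.36 and 4.3 CPM at rest and 12.4, 8.19, 12.7, 12.3 and 10.1 CPM in the graft. Its groups did not overlap (log2 fold change 1.19 ± 0.20, edgeR adjusted p = 0.000282), and 12.7% of its exonic bases lie in Eif4a2 on the opposite strand, whose log2 fold change was 0.08.

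Tyms, Rrm1 and Rrm2 make deoxynucleotides. Tyms, thymidylate synthase (chromosome 5, 30058202 to 30073617), had 9.54, 7.26, 6.72, 7.84 and 9.71 CPM in the resting libraries and 15.9, 12.5, 19.1, 17.3 and 19.9 CPM in the graft, with no overlap. The log2 fold change was 1.04 ± 0.17 (edgeR adjusted p = 0.000198). Rrm1 and Rrm2, the large and small subunits of ribonucleotide reductase, had 31.1 ± 4.40 and 15.4 ± 4.44 CPM at rest and 53.7 ± 10.4 and 27.1 ± 6.58 CPM in the graft. Only Rrm1 had separate groups: day 7 replicate 2 had 16 CPM of Rrm2, below resting replicates 1 and 4 with 19.4 and 20.1 CPM, and with library totals alone the adjusted p of Rrm2 was 0.0539. Uhrf1, which guides DNA methylation behind the fork, rose by 0.92 ± 0.27 on the log2 scale. Its day 7 replicate 2 (8.79 CPM) lay within the resting range of 4.73 to 11.9 CPM.

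**Figure D2:**
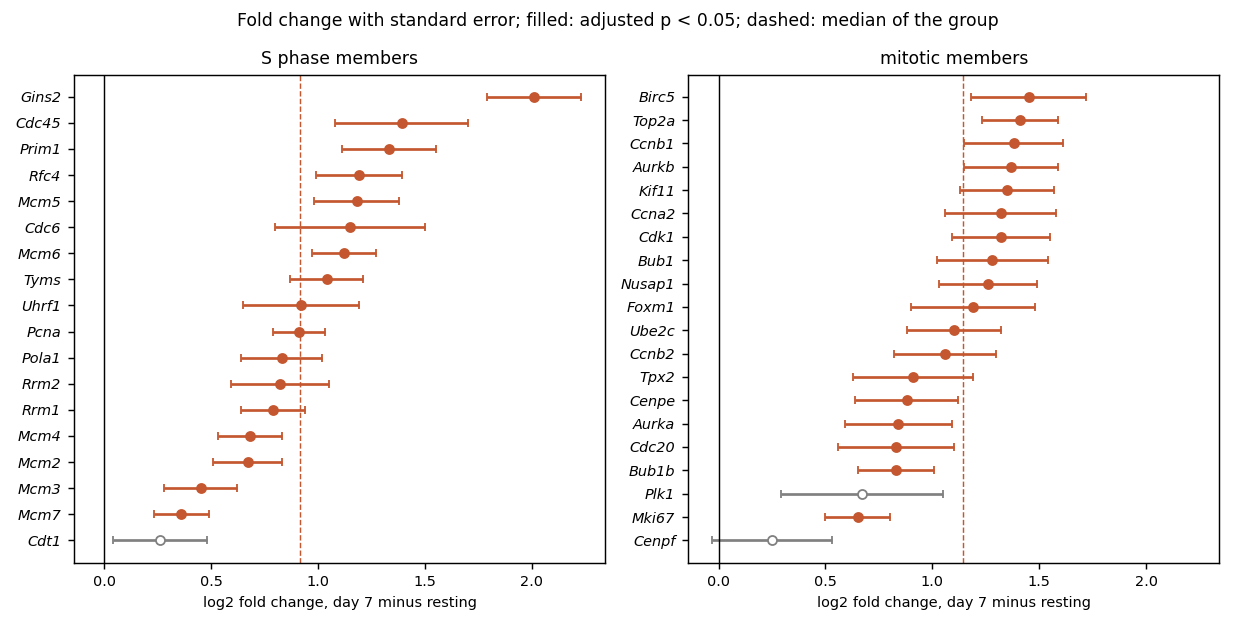
Log2 fold change of each member, day 7 without blockade minus resting, with its standard error as bars, S phase members on the left and mitotic members on the right; filled points passed at an adjusted p below 0.05 and the dashed line is the median of each kind. All 38 estimates lie above 0, from 0.25 for Cenpf to 2.01 for Gins2, and the 3 open points are Cdt1, Plk1 and Cenpf.

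Mki67 and Top2a are the most used marks of cycling cells, a coat protein of mitotic chromosomes and the topoisomerase that untangles them. Mki67 (chromosome 7, 135689784 to 135716361) had 35.1, 58.6, 41.1, 35 and 38.7 CPM in resting replicates 1 to 5 and 77.2, 53.7, 59.6, 64.8 and 71 CPM in day 7 replicates 1 to 5. Resting replicate 2 stood above day 7 replicate 2, and the log2 fold change of 0.65 ± 0.15 (edgeR adjusted p = 0.00363) was among the smallest of the mitotic members. Top2a (chromosome 11, 98992943 to 99024189) had 16.1, 20.8, 15.6, 16.1 and 14.4 CPM in the resting libraries and 44.7, 25.6, 51.7, 49.7 and 48.3 CPM in the graft. Its groups did not overlap, and it rose by 1.41 ± 0.18 on the log2 scale (edgeR adjusted p = 2.87e-05). Per exonic length the mitotic members were the less abundant kind in both groups, with a median of 1.33 CPM per kilobase in resting lung and 3.17 in the graft, against 3.12 and 4.95 for S phase members.

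Cdk1 and the cyclins that activate it were all higher in the graft. Cdk1 (chromosome 10, 69335146 to 69352938) had 3.82, 5.67, 5.48, 3.65 and 3.04 CPM in resting replicates 1 to 5 and 10.5, 6.81, 12.8, 10.7 and 13.3 CPM in day 7 replicates 1 to 5. Ccnb1, cyclin B1 (chromosome 13, 100778650 to 100786570), had 3.6, 6.07, 5.06, 7.17 and 4.52 CPM and 14.7, 8.3, 15.4, 16.3 and 13.5 CPM in the same order. For both genes the groups were separate and day 7 replicate 2 was the lowest graft library. The log2 fold changes were 1.32 ± 0.23 for Cdk1 (edgeR adjusted p = 0.000408) and 1.38 ± 0.23 for Ccnb1 (edgeR adjusted p = 0.000214). Ccna2, cyclin A2 (chromosome 3, 36564865 to 36572150), had 10.5, 10.9, 4.96, 13 and 5.85 CPM at rest and 26.4, 13.9, 25.2, 22.2 and 24.5 CPM in the graft. Day 7 replicate 2 exceeded resting replicate 4 by less than 1 CPM, and 12.5% of the exonic bases of Ccna2 lie in Exosc9, on the opposite strand. Ccna2 rose by 1.32 ± 0.26 on the log2 scale (edgeR adjusted p = 0.00101). Ccnb2, cyclin B2, went from 5.70 ± 1.79 to 11.8 ± 2.78 CPM, a rise of 1.06 ± 0.24 on the log2 scale (edgeR adjusted p = 0.00242). Its groups overlapped, with 8.38 CPM in resting replicate 4 and 7.47 CPM in day 7 replicate 2. Foxm1, the transcription factor of mitotic genes, went from 2.75 ± 0.96 to 6.33 ± 1.67 CPM without overlap.

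Birc5 and Aurkb form part of the chromosomal passenger complex, which corrects spindle attachments and directs cytokinesis. Birc5, or survivin (chromosome 11, 117849251 to 117855743), had 4.24, 5.17, 2.58, 7.17 and 3.26 CPM in the resting libraries and 11.3, 7.53, 12.7, 14 and 15.1 CPM in the graft. Aurkb (chromosome 11, 69045647 to 69051664) had 3.39, 4.97, 3, 6.22 and 3.04 CPM and 10.3, 9.07, 10.6, 11.3 and 11.6 CPM. Resting replicate 4 was the highest resting library for both, and the groups did not overlap. Birc5 had the largest log2 fold change of the mitotic members, 1.45 ± 0.27 (edgeR adjusted p = 0.000607), and Aurkb followed Top2a and Ccnb1 with 1.37 ± 0.22 (edgeR adjusted p = 0.000164). Aurka, the Aurora kinase of spindle poles, and its activator Tpx2 rose less, by 0.84 and 0.91 on the log2 scale, and their groups overlapped. In Aurka the graft libraries 4 and 5 were the lowest, at 5.8 and 5.39 CPM, below resting replicate 4 at 6.49 CPM. Tpx2 lost its call with library totals alone (adjusted p = 0.0549).

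Plk1, the Polo-like kinase (chromosome 7, 122159439 to 122169873), did not pass, with 2.97, 1.69, 3.41, 5.14 and 1.56 CPM in resting replicates 1 to 5 and 4.88, 1.76, 5.65, 5.8 and 4.96 CPM in day 7 replicates 1 to 5. Day 7 replicate 2 sat at the resting level while the other 4 graft libraries were close to the highest resting value. The log2 difference of 0.67 ± 0.38 had an edgeR adjusted p of 0.162, which became 0.0345 without day 7 replicate 2 (log2 fold change 0.89) and 0.0302 without a filter on low counts. Cenpf, a large kinetochore protein (chromosome 1, 189640606 to 189688086), did not pass either, with 4.13, 5.37, 2.69, 3.79 and 2.37 CPM and 4.08, 2.53, 5.29, 4.94 and 4.9 CPM (log2 difference 0.25 ± 0.28, edgeR adjusted p = 0.483). It was also the member with the lowest level per exonic length, 0.24 and 0.28 CPM per kilobase. Cenpe, the kinetochore motor, rose by 0.88 ± 0.24 on the log2 scale.

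Among spindle and checkpoint genes, Kif11, the motor that pushes spindle poles apart (chromosome 19, 37376403 to 37421859), had 6.04, 7.26, 8.16, 8.25 and 4.74 CPM at rest and 17.3, 10.1, 18.2, 19.6 and 22 CPM in the graft. Bub1, a checkpoint kinase at kinetochores (chromosome 2, 127801122 to 127831865), had 2.44, 3.38, 1.96, 3.11 and 4.3 CPM and 8.47, 4.78, 7.33, 6.72 and 9.97 CPM. Neither gene had overlapping groups, and the log2 fold changes were 1.35 ± 0.22 for Kif11 (edgeR adjusted p = 0.000226) and 1.28 ± 0.26 for Bub1 (edgeR adjusted p = 0.00105). Bub1b, which encodes the checkpoint protein BubR1, Nusap1, a microtubule bundler, and Ube2c, a ubiquitin carrier of the anaphase-promoting complex, rose without overlap by 0.83, 1.26 and 1.10 on the log2 scale. Cdc20, the activator of that complex, went from 4.50 ± 1.59 to 8.01 ± 1.98 CPM (edgeR adjusted p = 0.0228). The call of Cdc20 ended with library totals alone (adjusted p = 0.0932) and without resting replicate 2 or 3 (0.061 and 0.0572).

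S phase members were compared with mitotic members library by library. Their summed level in resting replicates 1 to 5 was 364, 296, 297, 356 and 279 CPM for S phase members and 138, 177, 138, 169 and 127 CPM for mitotic members. In day 7 replicates 1 to 5 it was 637, 456, 626, 555 and 552 CPM for S phase members and 329, 209, 329, 326 and 339 CPM for mitotic members. Neither sum overlapped between groups, and the group means rose 1.77-fold for S phase and 2.05-fold for mitotic members. The ratio of the mitotic to the S phase sum was 0.379 to 0.599 in resting lung and 0.457 to 0.615 in the graft, with means of 0.474 ± 0.079 and 0.541 ± 0.062 (SD, n = 5 each), so the ranges overlapped. The median fold change was larger for mitotic than for S phase members, by 0.23 on the log2 scale, and it stayed larger under all 18 alternatives, which moved that gap between 0.13 and 0.33. No test was made of this gap, because the lists were set with results known. Spread between libraries was somewhat wider for the less abundant mitotic members: the median coefficient of variation was 29.1% in resting lung and 23.9% in the graft, against 22.9% and 18.1% for S phase members.

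**Figure D3:**
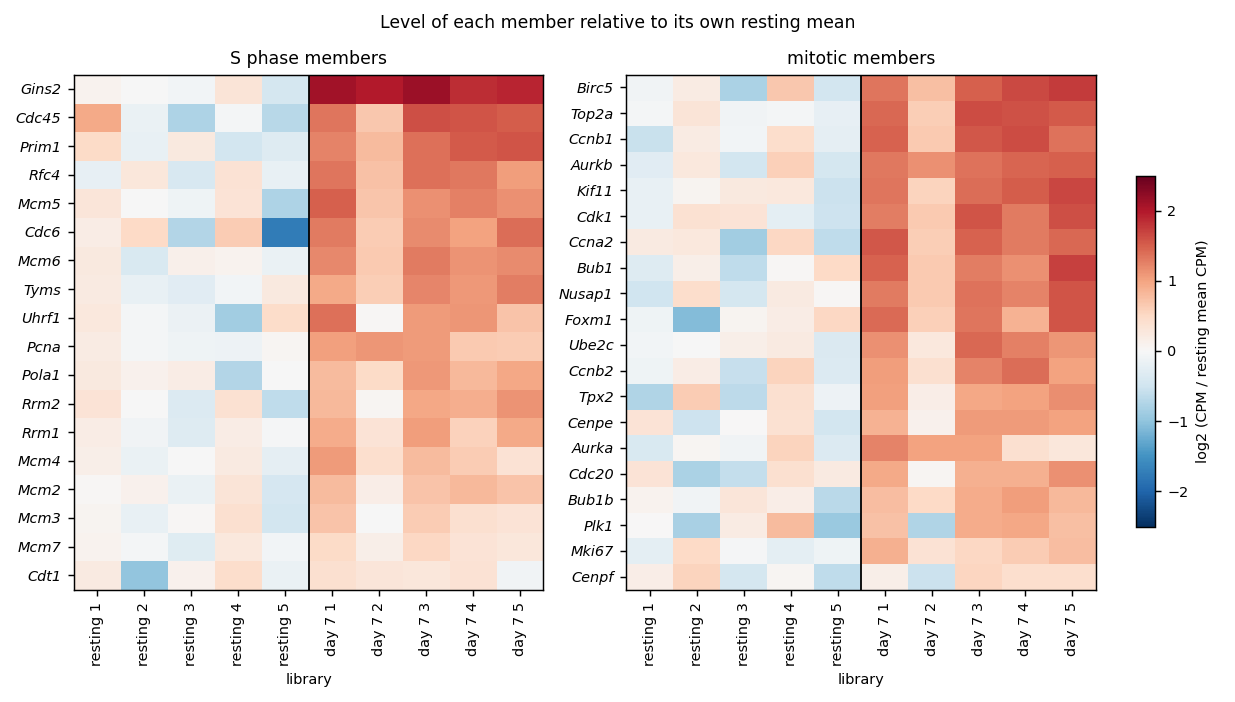
Level of each member in each library relative to that gene's resting mean (log2 of the ratio of CPM), with S phase members on the left, mitotic members on the right and a line between the 5 resting and the 5 day 7 libraries. The column of day 7 replicate 2 is the palest of the graft, with medians of 0.55 for S phase and 0.57 for mitotic members, against 0.96 to 1.08 and 1.19 to 1.31 in the other graft libraries.

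Day 7 replicate 2 was the lowest graft library for 14 of 18 S phase members and 19 of 20 mitotic members, against 21.8% of all genes tested; the exceptions were Mcm4, Cdt1, Pcna and Gins2 on the S phase side and Aurka on the mitotic side. The highest graft library varied: it was replicate 1, 2, 3, 4 and 5 for 8, 1, 10, 6 and 13 of the 38 members. In resting lung the level was highest in replicate 4 for 11 members of each kind (24.7% of all genes) and lowest in replicate 5 for 7 of each (18% of all genes). Without day 7 replicate 2 the medians rose to 1.03 for S phase and 1.29 for mitotic members, with 17 and 19 members higher. Of all genes 21.9% were higher in that fit.

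**Figure D4:**
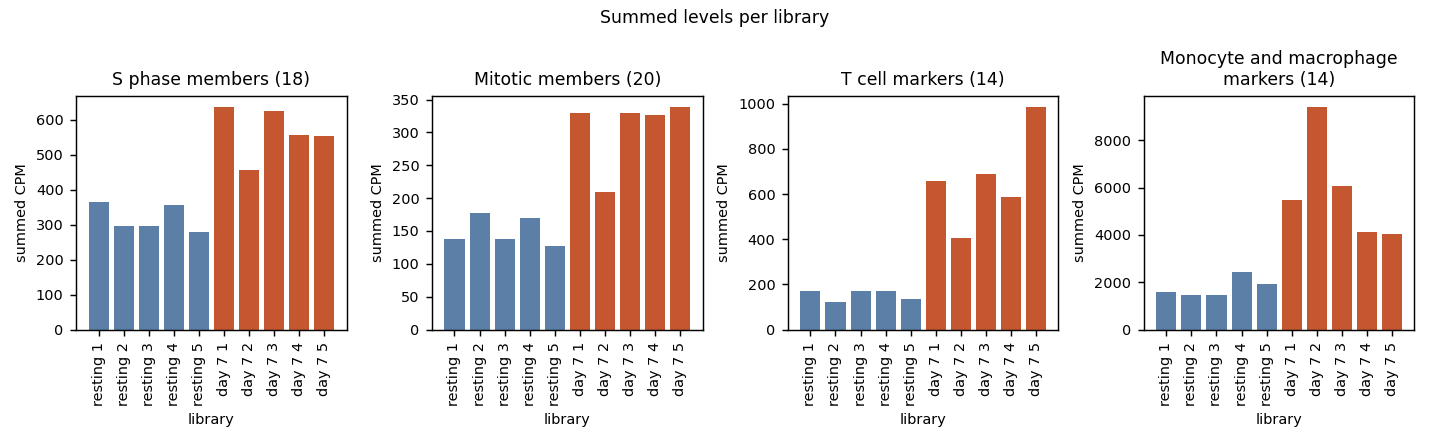
Summed CPM per library (bars from 0) of the 18 S phase members, the 20 mitotic members, 14 T cell markers and 14 monocyte and macrophage markers, resting libraries in blue and day 7 libraries in orange. Day 7 replicate 2 has the lowest graft bar for both kinds of member and for T cell markers (407 CPM) and the highest for monocyte and macrophage markers (9428 CPM). Several marker lists not drawn, such as those of epithelium and endothelium, were also lowest in that graft library. Others, such as those of eosinophils and NK cells, were not.

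Levels of markers of other cells are given beside these sums. T cell markers summed to 172, 124, 173, 170 and 136 CPM in resting replicates 1 to 5 and to 656, 407, 688, 586 and 987 CPM in day 7 replicates 1 to 5 (exact two-sided permutation p = 0.00794, the smallest that 5 against 5 can give, adjusted p = 0.0119 over 12 marker lists). Day 7 replicate 2 was the lowest graft library in T cell markers, as in both member sums. It was also lowest in B cell and plasma cell, progenitor and endothelial markers (166, 65.1 and 96.4 CPM). The same held for epithelial markers and those of fibroblasts and smooth muscle (34.2 and 134 CPM). In eosinophil, NK cell, dendritic cell, neutrophil and red cell markers that replicate was not the lowest (2014, 122.3, 242.5, 2970 and 67.48 CPM). Day 7 replicate 5, highest in T cell markers, was highest in the mitotic but not in the S phase sum. Cd3e and Cd8a went from 13.3 ± 3.33 and 4.50 ± 1.54 to 72.6 ± 27.9 and 77.1 ± 40.2 CPM. Monocyte and macrophage markers summed to 1450 to 2420 CPM at rest and 4030 to 9430 CPM in the graft (adjusted exact permutation p = 0.0119), with the highest value in day 7 replicate 2. NK cell markers summed to 53.2 to 78.1 and 94.4 to 307 CPM, and 3 of 6 were higher. The counts of this list and of those that follow stand beside 23.3% of all genes higher and 23.4% lower. Of 8 markers of blood cell progenitors none was higher and 5 were lower, and their sum fell from 344 to 459 CPM in resting lung to 65.1 to 168 CPM in the graft. Kit, a receptor found on progenitors and mast cells but not only there, went from 140 ± 19.6 to 28.8 ± 1.70 CPM. Gata2, Cpa3 and Myb of the same list did not pass, with log2 differences of -0.30, 0.40 and 0.49. Kit and Cd34 had the highest resting levels of that list (140 and 139 CPM), so its sum mostly follows them. All 10 endothelial markers were lower in the same libraries (median log2 fold change -5.17). Whether the fall of Kit and Cd34 came from progenitors or from other cells was not tested. B cell and plasma cell markers summed to 289 to 424 and 166 to 267 CPM, with 1 of 7 higher and 5 lower. Neutrophil markers, 0 of 9 higher and 5 lower, summed to 4240 to 8340 CPM at rest and 1890 to 7280 CPM in the graft, ranges that overlapped. That sum mostly follows Retnlg, which had means of 5356 CPM at rest and 4288 CPM in the graft and did not pass. The 5 lower markers were Camp, Ltf, Ngp, Elane and Mpo, with log2 fold changes of -4.89, -2.46, -3.99, -4.27 and -3.90. Dendritic cell markers, 4 of 8 higher and 1 lower, summed to 162 to 232 and 231 to 311 CPM, red cell markers, 6 of 6 tested lower, to 1240 to 1870 and 46.1 to 105 CPM, and fibroblast and smooth muscle markers, 1 of 8 higher and 4 lower, to 452 to 570 and 134 to 666 CPM. No marker in the T cell, monocyte, NK, B cell and progenitor lists was at 0 in any library. Their part in the result was not tested.

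The rest of the replication machinery was read from lists set apart from the members. Their counts stand beside 23.3% of all genes higher and 23.4% lower, or 15.1% and 29.6% with library totals alone. In the licensing and firing list 11 of 20 genes were higher and 0 lower, with a median log2 fold change of 0.76, and 9 and 0 with library totals alone. Gmnn, or geminin, the inhibitor that binds Cdt1, rose from 4.31 ± 1.41 to 12.1 ± 2.01 CPM, Orc1, a subunit of the origin recognition complex, from 2.21 ± 1.08 to 5.28 ± 0.93 CPM, and Mcm10 and Gins1 by 1.35 each on the log2 scale. Of the replication fork list 17 of 27 were higher and 1 lower (median 0.60), and 12 and 3 with library totals alone. Rfc5, another clamp loader subunit, rose from 11.8 ± 2.32 to 27.8 ± 4.49 CPM, Chaf1b, a histone chaperone at forks, from 5.43 ± 0.73 to 13.6 ± 2.65 CPM, and Pole2 by 1.30 on the log2 scale. The lower gene was Timeless, which protects stalled forks and also has roles in the clock, from 22.8 ± 4.34 to 7.34 ± 1.77 CPM (edgeR adjusted p = 1.23e-05). With library totals alone Pold1, the catalytic subunit of polymerase delta, and Top1, topoisomerase I, were lower too (edgeR adjusted p = 0.0289 and 0.0298). In the nucleotide supply list 9 of 14 were higher and 2 lower (median 0.78), and 8 and 2 with library totals alone. Shmt1 and Mthfd2, enzymes of folate metabolism, rose by 1.40 and 1.76 on the log2 scale. So did Samhd1, which breaks deoxynucleotides down and is also induced by interferon, from 1197 ± 266 to 4050 ± 921 CPM. The lower genes were Rrm2b, an alternative small subunit of ribonucleotide reductase, from 22.8 ± 2.94 to 15.6 ± 2.31 CPM (edgeR adjusted p = 0.0063), and Mthfd1, a folate enzyme, from 32.5 ± 5.48 to 23.4 ± 4.77 CPM (edgeR adjusted p = 0.0281).

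Genes that control entry into S phase were mixed. Of 20, 11 were higher and 3 lower (median 0.39), and 5 and 3 with library totals alone. Ccne1, cyclin E1, rose from 1.29 ± 0.28 to 4.96 ± 0.98 CPM and Rbl1, a pocket protein that represses E2F targets, from 15.8 ± 3.51 to 34.1 ± 5.57 CPM. Tfdp2, a partner of E2F factors, fell from 28.2 ± 5.36 to 6.70 ± 2.12 CPM, E2f6, a repressor of the family, from 15.7 ± 3.09 to 6.69 ± 1.48 CPM, and E2f2 was the other lower gene. Among G1 cyclins and inhibitors of their kinases 4 of 17 tested genes were higher (23.5%, near the share of all genes) and 7 lower (median -0.24), and 2 and 8 with library totals alone. Ccnd1, cyclin D1, fell from 34.0 ± 5.58 to 14.2 ± 2.48 CPM. The inhibitors Cdkn2b and Cdkn1c fell from 11.4 ± 2.27 to 2.65 ± 0.49 CPM and from 7.61 ± 1.84 to 1.27 ± 0.37 CPM, whereas the inhibitor Cdkn1a rose from 421 ± 21.7 to 717 ± 234 CPM. Endothelial and epithelial markers fell in the same libraries, from 2560 to 3500 and 2670 to 3870 CPM to 96.4 to 173 and 34.2 to 348 CPM, and their part in these falls was not tested.

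**Figure D5:**
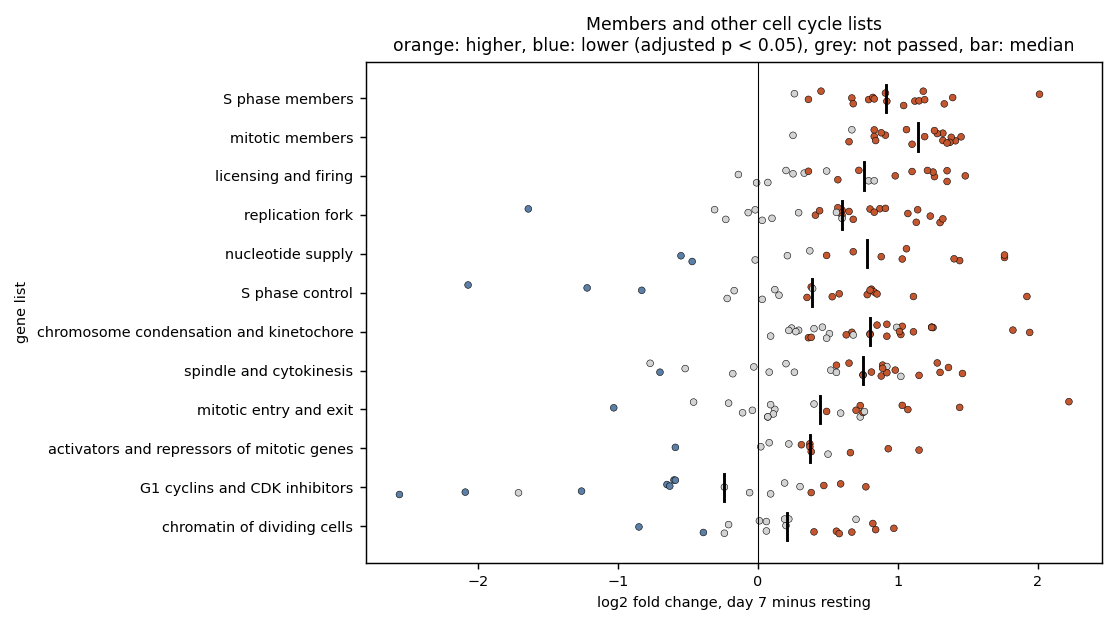
Log2 fold change (day 7 without blockade minus resting) of every tested gene of the S phase members, the mitotic members and 10 further cell cycle lists, with orange points for higher and blue points for lower genes at an adjusted p below 0.05, grey points for the rest and a bar at each median. Medians run from 1.15 for the mitotic members to -0.24 for G1 cyclins and inhibitors of their kinases.

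Beyond the mitotic members, 17 of 29 genes of chromosome condensation and the kinetochore were higher and 0 lower (median 0.80), and 9 and 0 with library totals alone. Ncapg2, a condensin II subunit, rose from 10.5 ± 2.85 to 40.0 ± 6.15 CPM (edgeR adjusted p = 1.61e-06), and Cenpm, Cenpk and Cenpi, proteins of the inner kinetochore, by 1.82, 1.25 and 1.24 on the log2 scale. Of 27 spindle and cytokinesis genes 14 were higher and 1 lower (median 0.75), and 9 and 1 with library totals alone. Ckap2, Cep55, Shcbp1 and Spag5 rose by 1.46, 1.36, 1.30 and 1.28, from levels of 1.24 to 3.20 CPM in resting lung. The lower gene was Kif23, a motor of the midzone. In the mitotic entry and exit list 8 of 22 were higher and 1 lower (median 0.45), and 6 and 4 with library totals alone. Nek2, a centrosome kinase, rose from 1.35 ± 0.90 to 6.12 ± 0.93 CPM, Ccnf, cyclin F, from 3.82 ± 1.83 to 10.2 ± 2.23 CPM and Cks1b, a subunit of cyclin-dependent kinases, by 1.07 on the log2 scale. Wee1, the kinase that holds Cdk1 inactive, fell from 9.57 ± 2.48 to 4.69 ± 1.02 CPM. Of the activators and repressors of mitotic genes 7 of 12 tested were higher and 1 lower (median 0.37), and 3 and 1 with library totals alone. Lin54, the MuvB subunit that binds the CHR, rose from 32.0 ± 3.78 to 71.1 ± 4.21 CPM (edgeR adjusted p = 1.03e-06), Mybl2, or B-Myb, by 0.93 and Lin37 by 0.66 on the log2 scale, while Lin52 fell by 0.59.

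Of 18 genes for chromatin and other proteins that dividing cells express strongly, 7 were higher and 2 lower (median 0.21), and 4 and 4 with library totals alone. H2afz, a histone H2A variant, rose from 143 ± 6.52 to 257 ± 53.1 CPM, Lmnb1, lamin B1, from 207 ± 23.8 to 365 ± 75.0 CPM, and Asf1b, a histone chaperone, by 0.97 on the log2 scale. Stmn1, or stathmin, a microtubule regulator, fell from 60.5 ± 9.18 to 33.6 ± 5.54 CPM (edgeR adjusted p = 0.000293).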

How the data were processed

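RNA was measured by sequencing in 10 libraries. STAR 2.5.2b, Trimmomatic 0.36, Subread 1.5.2, featureCounts, bcl2fastq 2.17 and the mm10 build are named in the submitters' processing notes, and the sources used here do not give their settings. The authors deposited raw counts per gene, which were joined by identifier. A further 10 columns headed by bare numbers matched no label and were not used. Symbols, spans and exonic lengths came from GENCODE M21, and promoters from RefSeq (GRCm38.p6).

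The test was that of edgeR 4.0.16 (R 4.3.3; TMM, filterByExpr by group, robust quasi-likelihood F test, group as the only term, Benjamini-Hochberg over 16500 genes, threshold 0.05). A standard error is a log2 fold change over the square root of its F statistic. CPM use TMM-scaled totals. The script was tested on simulated data. Marker sums were compared by exact permutation. Other settings tried were DESeq2 1.42.0, limma-voom (limma 3.58.1), other scalings and filters, thinning, a replicate block and leaving out each library.

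The members and lists were chosen with earlier results of these data known. All members are named; values per library are given for up to 8 of each kind that passed without overlap and had the largest fold changes, for Mki67, Top2a, Pcna and Cdk1, and for members that did not pass. Of each other list, up to 4 called genes with the largest change and at least 2 CPM in the higher group are named, except 1 that is not reported here. Rarer names (E2f2, Kif23, Rrm2b, Mthfd1, Pold1, Top1, Cd3e, Cd8a, Kit, Cd34, Gata2, Cpa3, Myb, Retnlg and the called eosinophil and neutrophil markers) were chosen after their values were seen.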

Additional observations from a re-analysis of the deposited data

Results flagged for a closer look

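In 82 groups of 5 libraries (each member and 3 sums in both conditions) a single library stood apart from the other 4 by more than 0.71 of the group's range in 10 cases. Chance does this in about 1 group in 20. Day 7 replicate 2 was the low library in 6 of these: Mcm2 at 24.8 CPM (next lowest 36.2), Top2a at 25.6 (next 44.7), Plk1 at 1.76 (next 4.88), Tpx2 at 5.66 (next 9.84), Cenpe at 5.38 (next 9.2) and the mitotic sum at 209 CPM (next 326). Day 7 replicate 5 was low in Cdt1, at 9 CPM (next 11.7). In resting lung, replicate 2 was high in Mki67, at 58.6 CPM (next highest 41.1), and in Top2a, at 20.8 (next 16.1), and replicate 1 was high in Cdc45, at 8.16 CPM (next 4.06). The members share libraries, so these cases are not independent of each other.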

How the results depend on the processing

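Over 18 alternatives (8 settings and 10 left-out libraries) no member changed direction: of 684 values, 657 kept their side of the threshold, 25 lost a call and 2 gained one. The lost calls belong to Mcm3, Mcm7, Cdc20, Cdc6, Rrm2 and Tpx2, and the gained ones to Plk1, and 29 members kept their call throughout. Leaving out each library gave 15 to 17 S phase and 17 to 19 mitotic members higher and 0 lower. Of all genes 20.6% to 23.9% were higher in these fits. The medians were 0.87 to 1.03 for S phase and 1.09 to 1.29 for mitotic members. The number of all genes higher was 2495 with library totals alone, and the number lower was 6715 without a filter on low counts and 6216 with DESeq2, both of which test more genes. With replicate number as a block, 16 S phase and 18 mitotic members were higher, against 20.1% of all genes. Mcm7 was the member that lost its call there (edgeR adjusted p = 0.0645). Same-numbered libraries did not deviate together (correlations of -0.19 to 0.12), and 0 of 5 resting libraries matched its own number best. No pairing by number was thus seen, but with 5 libraries per group this check can miss one. Low counts limit Gins2, Plk1, Cdc6 and Foxm1 most.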
